A study of Homo sapiens with 12 samples.

Results

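Growth factor receptor kinases are membrane proteins that bind a secreted or cell-bound ligand outside the cell and add phosphate to tyrosines inside it. The receptors described here are EGFR, ERBB2 and ERBB3 of the ERBB family, the hepatocyte growth factor receptor MET, the fibroblast growth factor receptors FGFR1, FGFR2, FGFR3 and FGFR4, the GAS6 receptor AXL and the ephrin receptor EPHA2. They were chosen by name, and a receptor was read from the transcript cluster annotated to its symbol, or from the one with the highest mean signal where a symbol had several. Of the 10 receptors, 9 had a cluster, exactly 1 each, among 14884 symbols in the whole series, and all 9 passed the filter on low signals that left 11463 genes to test. The transcript of ERBB2 is not analysed here.

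Transcripts were measured on 12 Affymetrix whole-transcript arrays, from the established lines AGS, MKN1 and SNU601, all derived from gastric cancers, each under 4 treatments with 1 array per treatment. The treatments were DMSO, the solvent control, Rhosin, a small molecule that inhibits the GTPase RhoA, and JK136 and JK139, which the labels name only by code. The labels state neither dose nor exposure time, all cells were grown in serum, and each line stands for a single tumour. Each line had 4 arrays under different treatments, and each treatment had 3 arrays from different lines, so the p-values measure only the spread between these arrays.

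Among these receptors, EGFR, MET and AXL signal after binding their ligands by passing phosphate groups between paired receptor chains, and the signal runs through adaptors to the RAS and PI3-kinase pathways. ERBB3 has a weak kinase and signals chiefly when paired with another ERBB receptor. The FGF receptors bind their ligands together with heparan sulfate or klotho proteins as coreceptors, and EPHA2 binds ephrin A proteins on neighbouring cells. In gastric cancer, EGFR, ERBB2, MET and FGFR2 are known as genes that can be amplified, and AXL is commonly described in cells with mesenchymal features.

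The stretch before the transcription start is shown for AXL, FGFR2 and MET, because these receptors separated the lines in different directions. RefSeq windows on GRCh38.p14 were listed for 8 of the 10 receptors, and the 250 bases before the most upstream listed start were read 5′ to 3′ on the gene's strand. Capitals mark matches on either strand to 3 short motifs that did not overlap here: CACCTG, an E-box that ZEB and SNAI factors can bind, GGGCGG, the GC box, and TGANTCA, the AP-1 element. The window of AXL is chr19:41218973-41219222 on the plus strand, that of FGFR2 is chr10:121598445-121598694 on the minus strand, and that of MET is chr7:116671946-116672195 on the plus strand.
AXL: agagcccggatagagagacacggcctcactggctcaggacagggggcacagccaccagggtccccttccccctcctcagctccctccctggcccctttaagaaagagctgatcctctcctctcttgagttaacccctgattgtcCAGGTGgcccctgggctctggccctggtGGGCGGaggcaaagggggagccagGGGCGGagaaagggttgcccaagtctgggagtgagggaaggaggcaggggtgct
FGFR2: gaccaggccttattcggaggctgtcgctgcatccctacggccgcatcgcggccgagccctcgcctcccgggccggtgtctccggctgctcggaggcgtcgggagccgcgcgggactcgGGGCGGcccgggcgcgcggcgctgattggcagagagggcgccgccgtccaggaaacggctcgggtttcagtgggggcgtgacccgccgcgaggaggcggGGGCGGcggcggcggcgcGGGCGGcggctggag
MET: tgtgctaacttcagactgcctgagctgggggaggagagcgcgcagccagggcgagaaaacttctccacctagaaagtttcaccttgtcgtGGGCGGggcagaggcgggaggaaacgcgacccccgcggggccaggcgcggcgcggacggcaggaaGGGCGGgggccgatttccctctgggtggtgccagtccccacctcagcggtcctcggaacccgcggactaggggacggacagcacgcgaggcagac

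The AXL window held 1 E-box and 2 GC boxes at a GC content of 64.4%. The FGFR2 window held 3 GC boxes at 78.4% GC, and the MET window held 2 at 68.4% GC, neither with an E-box. Over the 8 receptors with a window, 7 had a GC box, 2 (AXL and FGFR4) had the E-box and 1 (ERBB2) had the AP-1 element. Of all 35116 windows of this length, 42.6% held the GC box, 17.5% the E-box and 6.6% the AP-1 element, and the median GC content was 58.0%. These matches describe letters in the window and not binding, which was not measured.

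The values are log2 signals, so a difference of 1 is a doubling, and probes differ in brightness, so levels are compared between samples of 1 gene and never between genes. A level of 3.70, the 40th percentile of the means of all 53617 clusters, serves as the mark of a low signal. Array medians ran from 4.14 to 4.20. Over all clusters, Pearson's r ran from 0.978 to 0.988 within a line and from 0.927 to 0.960 between lines. The arrays of AGS were the most spread, with a median SD over 4 arrays of 0.16 against 0.13 in MKN1 and 0.12 in SNU601, and the AGS arrays under Rhosin and JK136 correlated least within a line.

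The labels give each line as a stomach cancer line, and epithelial markers were checked against that. EPCAM, an epithelial adhesion protein, lay between 10.00 and 10.31 on the 8 arrays of AGS and SNU601 and between 6.23 and 6.73 on the 4 arrays of MKN1. CLDN7, a tight junction protein, showed the same split, at 9.27 to 10.08 against 5.96 to 6.14. The keratins KRT18 and KRT19 were above 8 on all 12 arrays, and of 7 epithelial markers with a cluster (of 8 listed) 4 were higher and 3 lower in MKN1 than in AGS. Of 6 mesenchymal markers with a cluster (of 8 listed), 4 were tested, and VIM, ZEB1, FN1 and SNAI2 were called higher in MKN1 than in AGS. In that pair 58.8% of all genes tested were called, in either direction. ZEB1 and FN1 had means well under the low level in AGS (3.29 and 3.42) and SNU601 (3.30 and 3.50). They passed the filter only through MKN1, so they had to differ. FN1 was at least 59.3-fold and ZEB1 at least 5.12-fold higher in MKN1 than in AGS. ZEB2 and TWIST1, under the filter and not tested, stayed between 2.47 and 3.89 on every array. LUM, a matrix proteoglycan of fibroblasts, was at 8.19 to 9.06 in MKN1 against 2.67 to 3.50 elsewhere, whereas DCN, another such proteoglycan, lay between 1.76 and 2.39 on all arrays. Of 11 markers of blood, endothelial and fibroblast cells, 5 had a cluster, and among these PECAM1 and VWF, endothelial markers, had no array above 4.51, and CD68 was at 5.80 to 6.43 in AGS and 8.07 to 8.96 in the other lines. The part of these line features in the receptor differences was not tested.

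The lines carried different sets of receptors. MKN1 had the highest AXL and FGFR1 and the lowest ERBB3, FGFR2 and FGFR4. SNU601 had the highest MET and FGFR4 and the lowest EGFR and FGFR3, and AGS shared ERBB3 and FGFR2 with SNU601. EPHA2 had the smallest range over the means of the 3 lines, 0.22, against 0.65 to 3.52 for the others. In RNA pooled over a culture, fewer cells with a transcript and less transcript per cell cannot be told apart. In limma's model with line and treatment, 5 of 9 receptors differed between MKN1 and AGS (2 higher, 3 lower in MKN1) at an adjusted p under 0.05, where 58.8% of all genes tested did. Between SNU601 and AGS, 4 of 9 differed (2 higher, 2 lower in SNU601) against 43.3% of all genes, and between SNU601 and MKN1, 8 of 9 differed (4 higher, 4 lower in SNU601) against 56.2%. FGFR1 passed the filter only through MKN1, so it had to differ from the other lines, and without it the counts were 4, 4 and 7 of 8.

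**Figure D1:**
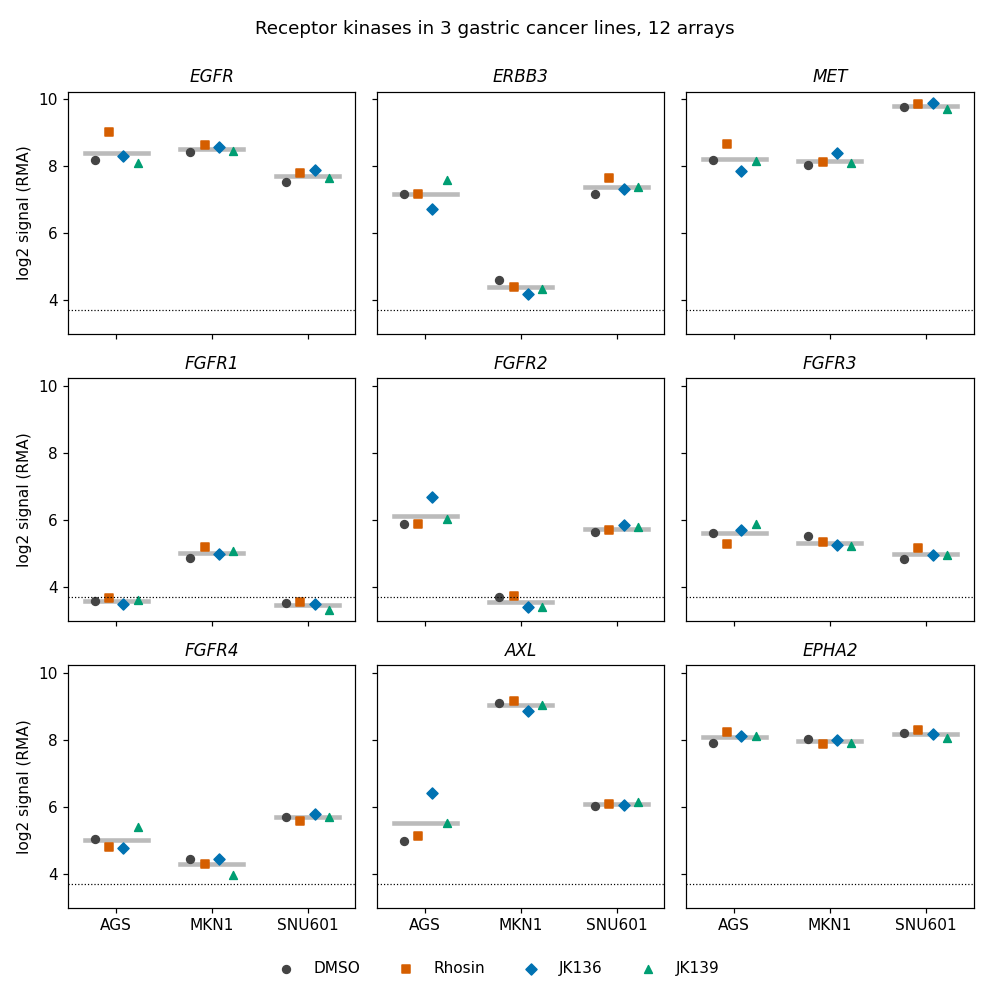
Log2 signal (RMA, vertical axis) of the 9 receptors on the 12 arrays, grouped by line, with 1 symbol per treatment. Grey bars are means over the 4 arrays of a line, and the dotted line is the low level of 3.70; AXL is between 8.85 and 9.15 in MKN1 and under 6.5 elsewhere, while ERBB3 and FGFR2 are lowest in MKN1, where 3 of 4 FGFR2 arrays are under the dotted line.

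The arrays of 2 lines did not overlap at all for 5 of 9 receptors between MKN1 and AGS, where 52.8% of all genes tested did not. The same held for 5 of 9 between SNU601 and AGS against 40.4% of all genes, and for 9 of 9 between SNU601 and MKN1 against 55.4%. Without FGFR1, which passed the filter only through MKN1, the counts in the same order were 4, 5 and 8 of 8. The medians that follow include FGFR1. The median signed difference over the 9 receptors was -0.14, 0.08 and 0.22 in these pairs, against 0.01, 0.04 and 0.02 over all genes. The median absolute difference over the 9 receptors was 0.72 between MKN1 and AGS, 0.56 between SNU601 and AGS and 1.56 between SNU601 and MKN1. Over all genes tested the medians were 0.35, 0.23 and 0.33. Line held between 49.4% (EPHA2) and 98.1% (FGFR1) of a receptor's sum of squares over the arrays, where the median gene had 76.4%.

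EGFR (cluster 17046135), the receptor of EGF, amphiregulin and related ligands, was clearly above the low level in every line. In AGS it read 8.18 under DMSO, 9.03 under Rhosin, 8.29 under JK136 and 8.08 under JK139. In MKN1 it read 8.42, 8.61, 8.58 and 8.44 under the same treatments, and in SNU601 7.53, 7.80, 7.87 and 7.65. All 4 arrays of SNU601 lay below all arrays of the other lines, which overlapped each other. SNU601 was 1.60-fold lower than AGS (log2 difference -0.68 ± 0.13 SE, limma adjusted p = 0.00119) and 1.74-fold lower than MKN1 (-0.80 ± 0.13, adjusted p = 0.000231). MKN1 and AGS, neighbours in the order, were not separated (0.12, 95% interval -0.17 to 0.41). Without the AGS Rhosin array, the highest of the 12, that difference was 0.30 and passed the threshold.

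ERBB3 (cluster 16752397), the neuregulin receptor with a weak kinase, split the lines into high and low. It read 7.16, 7.16, 6.73 and 7.58 in AGS under DMSO, Rhosin, JK136 and JK139, and 7.16, 7.63, 7.32 and 7.36 in SNU601. In MKN1 it read 4.59, 4.40, 4.18 and 4.34, at least 2 log2 units below every array of the other lines. MKN1 was 6.87-fold lower than AGS (-2.78 ± 0.14 SE, limma adjusted p = 1.07e-08) and SNU601 was 7.96-fold higher than MKN1 (2.99 ± 0.14, adjusted p = 5.95e-09). AGS and SNU601 overlapped, with a difference of 0.21 (95% interval -0.09 to 0.52) that passed the threshold only without the AGS JK139 array (0.36).

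MET (cluster 17050591), the receptor of hepatocyte growth factor, was highest in SNU601. Its signals there were 9.75 under DMSO, 9.85 under Rhosin, 9.89 under JK136 and 9.71 under JK139. In AGS they were 8.19, 8.65, 7.86 and 8.16, and in MKN1 8.02, 8.12, 8.38 and 8.10. Every array of SNU601 was more than 1 log2 unit above every array of AGS and MKN1, which overlapped. SNU601 was 2.99-fold higher than AGS (1.58 ± 0.14 SE, limma adjusted p = 2.83e-06) and 3.12-fold higher than MKN1 (1.64 ± 0.14, adjusted p = 8.71e-07). The difference of MKN1 from AGS was -0.06 (95% interval -0.36 to 0.24), and it turned positive without the AGS Rhosin array (0.08) or without the MKN1 Rhosin array (0.03).

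AXL (cluster 16862439), a receptor of the TAM family that binds GAS6, stood out in MKN1. Its signals in MKN1 were 9.08, 9.15, 8.85 and 9.04 under DMSO, Rhosin, JK136 and JK139. In SNU601 they were 6.02, 6.07, 6.03 and 6.14, and in AGS 4.97, 5.13, 6.41 and 5.51. AGS therefore ran from below to above the 4 arrays of SNU601, and its SD of 0.64 compares with 0.06 in SNU601 and 0.13 in MKN1. MKN1 was 11.5-fold higher than AGS (3.52 ± 0.22 SE, limma adjusted p = 7.53e-08), and SNU601 was 7.81-fold lower than MKN1 (-2.97 ± 0.22, adjusted p = 3.45e-07). SNU601 against AGS gave 0.56 (95% interval 0.07 to 1.05, adjusted p = 0.0623). That difference passed the threshold without the AGS JK136 array (0.90), without the MKN1 JK136 array (0.56) or without the SNU601 JK136 array (0.69).

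The FGF receptors differed in which line was high. FGFR1 (cluster 17076415) read 4.86, 5.20, 4.97 and 5.06 in MKN1 under DMSO, Rhosin, JK136 and JK139. Its 8 arrays of AGS and SNU601 lay between 3.31 and 3.67, all under the low level of 3.70 and overlapping each other. Set against the low level, MKN1 was at least 2.50-fold higher than AGS (measured means 5.02 and 3.59, limma adjusted p = 5.13e-08) and at least 2.50-fold higher than SNU601 (3.47, adjusted p = 2.60e-08). The arrays give no call of presence or absence, so a signal under this level is not read as absence.

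FGFR2 (cluster 16719025), the FGF receptor with an epithelial splice form, ran the other way. In AGS it read 5.89, 5.86, 6.69 and 6.01 under DMSO, Rhosin, JK136 and JK139, and in SNU601 5.63, 5.69, 5.85 and 5.79. In MKN1 it read 3.69, 3.73, 3.39 and 3.41, with 3 of 4 arrays under the low level. With arrays under the low level set to it, FGFR2 was at least 5.30-fold lower in MKN1 than in AGS (measured difference -2.56 ± 0.16 SE, limma adjusted p = 6.31e-08) and at least 4.09-fold higher in SNU601 than in MKN1 (2.18 ± 0.16, adjusted p = 2.53e-07). The arrays of AGS all lay above those of SNU601, by a narrow margin, and the difference of -0.37 did not pass the test (adjusted p = 0.0783), though it did without the AGS Rhosin array (-0.48) or without the MKN1 JK136 array (-0.37).

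FGFR3 (cluster 16964027) had a smaller range over the line means, 0.65, than FGFR1 and FGFR2 (1.56 and 2.56 as measured). That of FGFR4 (cluster 16992957), 1.40, was close to the range of FGFR1. FGFR3 lay between 5.27 and 5.87 in AGS, between 5.23 and 5.50 in MKN1 and between 4.82 and 5.15 in SNU601. SNU601 was 1.57-fold lower than AGS (-0.65 ± 0.13 SE, limma adjusted p = 0.0017) and 1.28-fold lower than MKN1 (-0.36 ± 0.13, adjusted p = 0.0368). The second of these calls was lost without the MKN1 DMSO array (-0.27), the MKN1 Rhosin array (-0.33), the SNU601 DMSO array (-0.28), the SNU601 JK136 array (-0.35) or the SNU601 JK139 array (-0.32). AGS and MKN1 overlapped, at -0.29 for MKN1 minus AGS (adjusted p = 0.0763), a difference that passed without the AGS Rhosin array (-0.44) or the MKN1 DMSO array (-0.38).

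FGFR4, a receptor of FGF19, gave 3 steps. In SNU601 it read 5.69, 5.56, 5.78 and 5.68 under DMSO, Rhosin, JK136 and JK139, in AGS 5.02, 4.78, 4.75 and 5.40, and in MKN1 4.43, 4.28, 4.43 and 3.94. No arrays overlapped between any pair of lines. SNU601 exceeded AGS 1.61-fold (0.68 ± 0.15 SE, limma adjusted p = 0.00282), and MKN1 was 1.65-fold lower than AGS (-0.72 ± 0.15, adjusted p = 0.00135). Between the ends of the order, SNU601 was 2.64-fold higher than MKN1 (1.40 ± 0.15, adjusted p = 7.21e-06).

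EPHA2 (cluster 16682098), the ephrin A receptor, had the narrowest range of line means. It lay between 7.89 and 8.23 in AGS, between 7.88 and 8.02 in MKN1 and between 8.04 and 8.28 in SNU601. The arrays of SNU601 were all just above those of MKN1, with a difference of 0.22 (95% interval 0.02 to 0.42) and a limma adjusted p of 0.0566. That difference passed the threshold without the AGS DMSO array (0.22) or the MKN1 DMSO array (0.27). AGS overlapped both other lines.

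**Figure D2:**
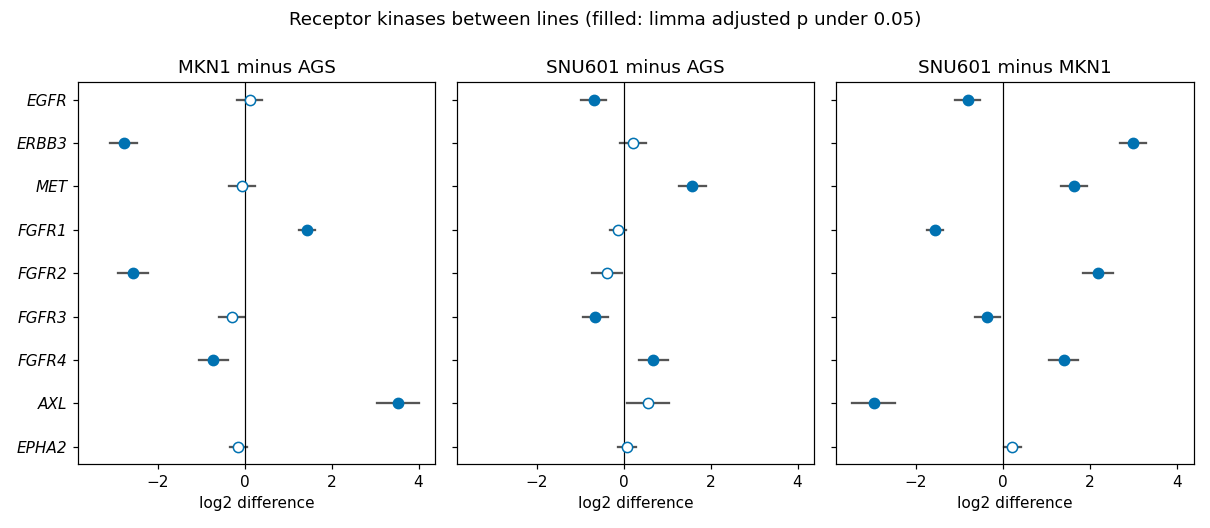
Log2 difference (horizontal axis) of each receptor between 2 lines, with the 95% interval from limma, in 1 panel for each pair of lines. Filled points have an adjusted p under 0.05: 5, 4 and 8 of the 9 receptors from left to right, with EPHA2 open in all 3 panels.

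The receptors most alike in pattern followed this split. Over the 12 arrays, which share lines, ERBB3 and FGFR2 had a Pearson r of 0.94, and AXL and FGFR1 of 0.94. ERBB3 and AXL ran opposite, at -0.96. Among all genes tested, LRP5 (0.996) and TSPAN15 (0.992) were nearest to ERBB3, OSBPL3 (0.993) and ELF1 (0.988) to FGFR2, ELOF1 (0.989) and CLIC3 (0.988) to AXL, and ZNF740 and DSEL (both 0.994) to FGFR1. SERP1 (0.985) and ANKRD22 (0.983) were nearest to MET, and SCARNA12 (0.980) and CHDH (0.977) to FGFR4. The highest values were smaller for EGFR (KLF10, 0.945, and SLFN5, 0.938), FGFR3 (ADA, 0.936, and FZD7, 0.928) and EPHA2 (TICAM1, 0.893, and SLFNL1-AS1, 0.889). With 3 lines setting most of the spread, 498 genes exceeded 0.95 with FGFR1, 381 with AXL, 305 with ERBB3 and 168 with FGFR2.

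Of 11 ERBB ligands listed, 4 had a cluster that passed the filter, and EREG, which codes for epiregulin, a ligand of EGFR and ERBB4, differed most. EREG read 8.21, 8.83, 8.85 and 8.62 in MKN1 under DMSO, Rhosin, JK136 and JK139, against 3.31 to 3.92 on the 8 arrays of AGS and SNU601. Its means in AGS and SNU601, both 3.67, lay under the low level. It passed the filter only through MKN1, so it had to differ from these lines. It was at least 28.2-fold higher in MKN1 than in AGS (limma adjusted p = 6.73e-11), with every MKN1 array more than 4 log2 units above the others. Of the 4 tested, 2 were called between MKN1 and AGS (1 higher, 1 lower in MKN1), and 1 was called, lower in SNU601, in each of the other pairs (50%, 25% and 25%, against 58.8%, 43.3% and 56.2% of all genes in these pairs). These counts include EREG, the ligand called higher in MKN1 than in AGS and the only ligand called between SNU601 and MKN1. BTC, betacellulin, was lower than in AGS in both MKN1 (-0.66) and SNU601 (-0.86). HBEGF, the heparin-binding EGF-like ligand, lay between 5.33 and 5.93 on 11 arrays and at 7.04 on the AGS Rhosin array, and it was not called between lines.

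Of the ligands of MET and AXL, HGF lay between 2.48 and 2.85 on all arrays, under the low level in the line with most MET as in the others. GAS6, the AXL ligand, was 2.93-fold lower in MKN1 than in AGS (-1.55 ± 0.09 SE, limma adjusted p = 3.04e-08) and 2.44-fold higher in SNU601 than in MKN1, so it was lowest in the line with most AXL. PROS1, protein S, a ligand of the related TYRO3 and MERTK receptors, read 5.22, 5.40, 5.16 and 5.35 in MKN1 and no more than 2.68 elsewhere. Its mean over 12 arrays fell under the filter, so it was not tested. TUB, tubby, also described as a ligand of MERTK, was higher in MKN1 than in AGS by 1.11.

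Of 18 FGF ligands, 12 passed the filter, and in each pair of lines 4 were called: 1 higher and 3 lower in MKN1 than in AGS, 2 higher and 2 lower in SNU601 than in AGS, and 4 higher in SNU601 than in MKN1. That is 33.3% of those tested, below the share of all genes called in each pair (58.8%, 43.3% and 56.2%). FGF20 was 6.16-fold lower in MKN1 than in AGS (-2.62 ± 0.22 SE, limma adjusted p = 7.45e-07), and FGF9, with a mean of 3.57 in MKN1, was at least 1.88-fold lower. FGF9 passed the filter only through AGS (4.66, against 3.69 in SNU601), so it had to differ. FGF18 was 2.12-fold higher in SNU601 than in AGS (1.08 ± 0.10, adjusted p = 6.64e-06). The klotho coreceptor KL was higher in MKN1 than in AGS by 2.13, while the other coreceptor KLB lay between 2.44 and 2.94 on all arrays.

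All 5 ephrin A ligands were called between MKN1 and AGS, where 58.8% of all genes were. EFNA5 was 4.95-fold higher in MKN1 (2.31 ± 0.17 SE, limma adjusted p = 2.54e-07), at 6.73 to 7.32 against 4.33 to 5.06 in AGS. EFNA1, EFNA2, EFNA3 and EFNA4 were lower in MKN1, with differences of -1.10 for EFNA3 and -1.01 for EFNA4. Between SNU601 and AGS 4 of the 5 were called (1 higher, 3 lower in SNU601), and between SNU601 and MKN1 also 4 (3 higher, 1 lower), where 43.3% and 56.2% of all genes were.

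Among 42 other receptor tyrosine kinases listed, 24 passed the filter. Of these, 18 differed between MKN1 and AGS (6 higher, 12 lower in MKN1), 12 between SNU601 and AGS (5 higher, 7 lower in SNU601) and 17 between SNU601 and MKN1 (10 higher, 7 lower in SNU601). These are 75%, 50% and 70.8% of the kinases tested, against 58.8%, 43.3% and 56.2% of all genes. The median difference over these kinases was -0.28 between MKN1 and AGS. MST1R, the MET relative that binds MSP, was 7.56-fold lower in MKN1 than in AGS (-2.92 ± 0.10 SE, limma adjusted p = 5.63e-10). MERTK, a relative of AXL, was high in AGS alone, at 6.68 to 7.00 against 3.39 to 4.16 in MKN1 and 3.01 to 3.24 in SNU601. It passed the filter only through AGS, so it had to differ from the other lines. PTK7, a receptor with an inactive kinase, was lower than in AGS in both MKN1 (-2.76) and SNU601 (-1.46). EPHB6, which also lacks kinase activity, was 4.82-fold higher in MKN1 than in AGS, and EPHB3 was 3.47-fold higher in SNU601 than in AGS. ERBB4, the remaining ERBB receptor, lay between 3.09 and 3.79 on all arrays.

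Adaptors and coreceptors carry the signal from the receptors or hold their ligands. Of 22 tested, 16 differed between MKN1 and AGS (6 higher, 10 lower in MKN1), 11 between SNU601 and AGS and 14 between SNU601 and MKN1. These are 72.7%, 50% and 63.6% of those tested, against 58.8%, 43.3% and 56.2% of all genes. The median difference between MKN1 and AGS was -0.23. CD44, a hyaluronan receptor known as a MET coreceptor, was 13.2-fold higher in MKN1 than in AGS (3.72 ± 0.12 SE, limma adjusted p = 2.81e-10). Of the docking proteins, GAB1 was lower in MKN1 than in AGS (-1.71) and GAB2, at 3.03 in MKN1, at least 2.34-fold lower, and SHC1 was lower in SNU601 than in AGS (-1.46). GRB7, an adaptor of ERBB receptors whose gene lies beside ERBB2, was 2.84-fold lower in MKN1 than in AGS.

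Feedback inhibitors switch off active receptors or the MAP kinases below them, and 13 of 23 listed had a cluster and were tested. Between MKN1 and AGS 11 differed, 3 higher and 8 lower in MKN1, which is 84.6% against 58.8% of all genes. Their median difference was -0.50. LRIG1, which promotes turnover of ERBB receptors and MET, was 4.60-fold lower in MKN1 (-2.20 ± 0.18 SE, limma adjusted p = 5.99e-07). ERRFI1, an inhibitor that binds the EGFR kinase, was 4.32-fold lower in MKN1 and 3.79-fold lower in SNU601 than in AGS. DUSP4, a phosphatase of MAP kinases, was lower in MKN1 than in AGS (-1.73). DUSP5, a related phosphatase with a mean of 3.46 in AGS, under the low level, was at least 2.63-fold higher in MKN1. With 3.48 in SNU601, DUSP5 passed the filter only through MKN1, so it had to differ. IL17RD, an FGF pathway inhibitor, was 6.27-fold lower in SNU601 than in AGS (-2.65 ± 0.12, adjusted p = 1.36e-08). Between SNU601 and AGS 5 of the 13 differed, 1 higher and 4 lower, and between SNU601 and MKN1 8 did, 5 higher and 3 lower. These are 38.5% and 61.5%, against 43.3% and 56.2% of all genes.

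**Figure D3:**
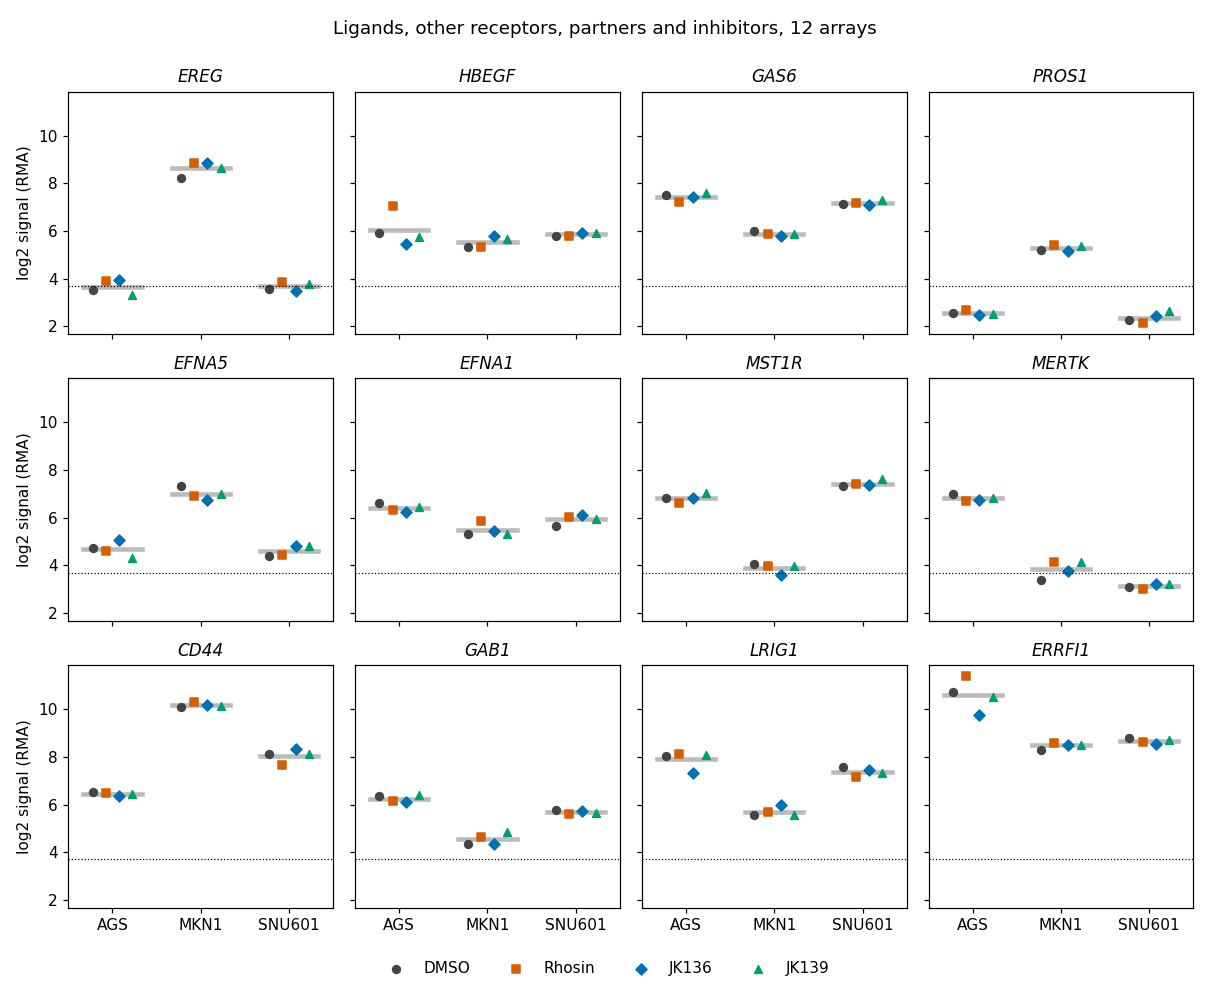
Log2 signal (RMA, vertical axis) of 12 ligands, other receptors, partners and inhibitors on the 12 arrays, with the symbols, grey means and dotted low level of the receptor plot. EREG, PROS1, EFNA5 and CD44 are highest in MKN1, where GAS6, LRIG1 and GAB1 are lowest, and HBEGF and ERRFI1 are highest on the AGS Rhosin array.

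Genes beside 4 of the receptors on their chromosome were read beside them, and copy number was not measured here. Beside FGFR2, all 3 neighbours tested were lower in MKN1 than in AGS, where 58.8% of all genes differed in either direction. They were NSMCE4A (-1.53), WDR11 (-1.12) and ATE1 (-0.27), each with a smaller difference than FGFR2 (-2.56). Beside MET, 2 were tested, and ST7 was 1.98-fold higher in SNU601 than in AGS (0.99 ± 0.09 SE, limma adjusted p = 3.64e-06) and also higher in MKN1 than in AGS (0.31, adjusted p = 0.0101), a pair in which MET did not pass the test, while TES lay between 7.95 and 8.69 on all arrays. Beside EGFR, LANCL2 was higher in MKN1 (1.01) and SNU601 (0.82) than in AGS, which was not the order of EGFR. Beside ERBB2, 5 of 6 tested differed between MKN1 and AGS, 3 higher and 2 lower in MKN1, 2 of 6 between SNU601 and AGS and 4 of 6 between SNU601 and MKN1. Of all genes tested, 58.8%, 43.3% and 56.2% differed in these pairs.

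The comparison of compounds with DMSO asks whether RhoA inhibition by Rhosin, or the code-named compounds, came with a change in receptor transcripts. No receptor passed the test. Under Rhosin, 0 of 9 receptors and 0% of all genes tested were called by limma, and 1 receptor (EGFR) had an unadjusted p under 0.05. Under JK136, 0 of 9 receptors and 0.00872% of all genes (1 gene) were called, and under JK139 0 of 9 and 0%, with 0 receptors at an unadjusted p under 0.05 for either. The 95% intervals of the receptors reached between 0.22 and 0.56 log2 units to either side of the estimate, so differences smaller than that could not be resolved. These intervals are not adjusted for the number of genes tested, so a larger difference need not be called.

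EGFR under Rhosin had the largest estimate. The AGS array was 0.85 above its DMSO array, the MKN1 array 0.19 and the SNU601 array 0.26, and limma gave 0.43 ± 0.15 SE (95% interval 0.10 to 0.77, adjusted p = 0.752). Without the AGS Rhosin array the estimate was 0.19, and without the line AGS it was 0.23. On that array HBEGF also read higher than under DMSO (7.04 against 5.93), a gene picked here after its values were seen. The array's median over all clusters was 4.20 and its interquartile range 2.73, against 4.15 and 2.84 on the AGS DMSO array. Of the 9 ERBB ligands with a cluster, 8 read higher and 1 lower on the AGS Rhosin array than under DMSO, with a median of 0.34. Only 4 of the 9 passed the filter, and the rest had low signals. Of the 13 feedback inhibitors, 6 read higher and 7 lower there than under DMSO, from -0.53 (IL17RD) to 0.68 (SPRY4, an inhibitor of RAS signalling), with a median of -0.08. The share of all genes that read higher on that array was not counted. Neither list can therefore be set against a background, and the counts are not read as a result about these genes. These are differences of 1 array from 1 array, with no test within the line. EGFR under JK136 gave 0.20 ± 0.15 and under JK139 0.01 ± 0.15.

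AXL under JK136 had the next estimate, 0.41 ± 0.26 SE (95% interval -0.16 to 0.97, limma adjusted p = 0.941). It came from AGS, where AXL was 1.44 above DMSO, against -0.23 in MKN1 and 0.01 in SNU601. Without the AGS JK136 array the estimate was -0.04, and without the line AGS -0.11. FGFR2 was 0.80 above DMSO on the same AGS array, -0.30 in MKN1 and 0.21 in SNU601, and its estimate of 0.24 ± 0.18 became -0.03 without that array. AXL under JK139 gave 0.21 ± 0.26 and under Rhosin 0.09 ± 0.26. The lowest estimates were -0.17 ± 0.17 for FGFR4 under Rhosin, -0.23 ± 0.16 for ERBB3 under JK136 and -0.04 ± 0.17 for FGFR4 under JK139, and MET under Rhosin gave 0.22 ± 0.16.

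**Figure D4:**
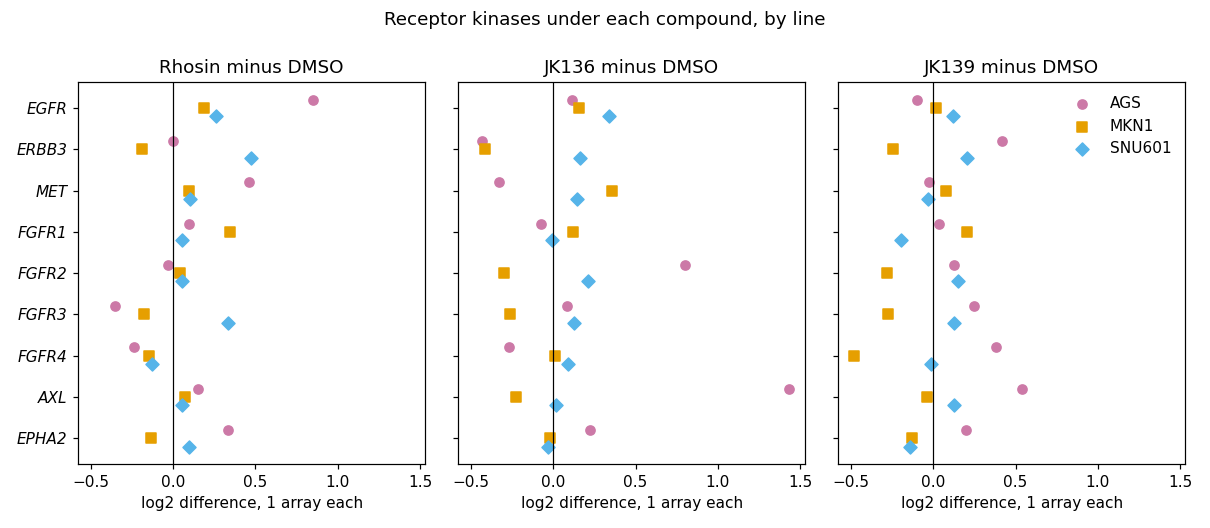
Log2 difference from DMSO (horizontal axis, 1 array minus 1 array) of each receptor under each compound, with 1 symbol per line. Most points lie within 0.5 of 0; the exceptions are EGFR under Rhosin (0.85), AXL and FGFR2 under JK136 (1.44 and 0.80) and AXL under JK139 (0.54), all in AGS.

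Read line by line, differences past 0.5 log2 units from DMSO were few. In AGS they numbered 1 of 9 under Rhosin, 2 of 9 under JK136 and 1 of 9 under JK139, where 8.61%, 7.49% and 3.82% of all genes tested were that far from DMSO. In MKN1 and SNU601 there were 0 of 9 under each compound. A single sign in all 3 lines was shown under Rhosin by 5 of 9 receptors (EGFR, MET, FGFR1 and AXL above DMSO, FGFR4 below) against 26.1% of all genes, under JK136 by 1 of 9 (EGFR) against 26.3%, and under JK139 by 0 of 9 against 24.0%. The 3 compound arrays of a line share 1 DMSO array, so these counts are not independent of each other. Of the other listed genes, 108 were tested, and limma called 0 under Rhosin, JK136 or JK139, with 12, 6 and 1 at an unadjusted p under 0.05.

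Between compounds, 3 pairs were compared, with doses not stated. The calls numbered 0 of 9 for JK136 minus Rhosin, JK139 minus Rhosin and JK139 minus JK136, where 0% of all genes were called by limma in each of these pairs. An unadjusted p under 0.05 was found for 0, 1 and 0 receptors. The estimates ran from -0.32 to 0.32, from -0.42 to 0.13 and from -0.24 to 0.35, with intervals of the width given above. For a difference between lines in their response, limma's F test of line by any compound was used: 0 of 9 receptors and 0% of all genes were called, 0 receptors and 345 genes had an unadjusted p under 0.05, with the spread between compounds serving as error.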

How the data were processed

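Per the labels and the submitters' processing notes, the deposited values are log2 signals of transcript clusters, made by the authors with RMA in Affymetrix Expression Console. RMA corrects background, equalises the arrays and summarises probes, which brings array medians together. Versions, build and annotation release are not given in the sources used here.

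Symbols came from the platform annotation (30% of 53617 clusters). Each symbol took its cluster with the highest mean, and genes under the 40th percentile of all cluster means (3.70) were left out. With limma 3.58.1 in R 4.3.3, line and treatment were fixed terms over 12 arrays (6 residual degrees of freedom). P-values were adjusted by Benjamini-Hochberg over 11463 genes and called under 0.05. The 3 lines are the replicates of a treatment, and line is the block, since the 4 arrays of a line come from the same cell line. The number of arrays limits the precision.

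The members, the 14 gene lists and the rule for named genes (all receptors, up to 4 called genes per list and pair of lines with the largest difference, chromosomal neighbours, the 2 genes most correlated with each receptor, sex-linked genes left out) were chosen with earlier results of these data known. HGF, PROS1, HBEGF, ERBB4, KLB and SPRY4 were named after their values were seen. Where a line's mean lay under 3.70, a fold is a lower bound against the higher of 3.70 and each array's own signal, a rule added after the data were seen. Olfactory receptor genes, planned as a mark of low signal, had 1 symbol here, so the filter level took their place.

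Alternatives covered normalization, filters, priors, array weights, cluster choice, block and treatment terms, and leaving out lines or arrays.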

Additional observations from a re-analysis of the deposited data

Results flagged for a closer look

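In 3 receptors the signals moved in opposite directions from DMSO in different lines, with the arrays of all 3 compounds on 1 side of the DMSO array in 1 line and on the other side in another. ERBB3 averaged -0.28 under the compounds in MKN1 and 0.28 in SNU601 on the log2 scale. FGFR3 averaged -0.24 in MKN1 and 0.20 in SNU601. EPHA2 averaged 0.25 in AGS and -0.10 in MKN1. Each value rests on 1 DMSO array shared by the 3 compounds, and the pattern itself was not tested. Its share over all genes tested was not counted, so these 3 of 9 receptors cannot be set against a background. limma's F test of line by any compound called 0 of 9 receptors. Of 27 groups of 4 arrays (9 receptors in 3 lines), 0 had an array far enough from the others to pass Dixon's 95% critical value, a value that chance passes in about 1 in 20 groups.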

How the results depend on the processing

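The counts of receptors called between lines and under compounds stayed within 1.5 times the reported counts under every alternative run. Leaving out 1 array at a time gave 5 to 7 receptors between MKN1 and AGS, 4 to 6 between SNU601 and AGS and 7 to 9 between SNU601 and MKN1, and 0 for every compound and pair of compounds. Without the line as replicate block, 0 of 9 receptors were called under Rhosin, JK136 or JK139, as with it, and the estimate of EGFR under Rhosin was 0.43 in both. Among the receptors, direction turned only in estimates that were not called. Without the line AGS, AXL under JK136 was -0.11 and FGFR2 under JK136 -0.043. EGFR under JK139 was -0.041 without SNU601, and FGFR4 under JK139 was 0.18 without MKN1. Leaving out 1 array at a time gave -0.040 to 0.68 for AXL under JK136, -0.027 to 0.36 under JK139 and -0.14 to 0.29 under Rhosin. The same step gave -0.047 to 0.12 for EGFR under JK139, -0.031 to 0.46 for FGFR2 under JK136, -0.29 to 0.20 for FGFR4 under JK139 and -0.23 to 0.082 for MET between MKN1 and AGS. The cause of these turns was not tested. The 2 stricter filters (4.71 and, added after the data were seen, 4.61 on the log2 scale) left FGFR1 out and called AXL between SNU601 and AGS and EPHA2 between SNU601 and MKN1. Array weights called these as well (adjusted p = 0.0142 and 0.0418 in limma) and FGFR3 between MKN1 and AGS (0.0323). EPHA2 between SNU601 and MKN1 also passed with the robust prior (0.0224), without a term for treatment (0.0425) and with the 2 lines alone (0.0472). FGFR3 between MKN1 and AGS passed without a term for treatment (0.0483), and FGFR2 between SNU601 and AGS with the 2 lines alone (0.0447). On the DMSO arrays alone, with no test, EPHA2 was 0.12 for MKN1 minus AGS (against -0.14) and 0.29 for SNU601 minus AGS (against 0.08), and FGFR3 was -0.68 for SNU601 minus MKN1 (against -0.36). Without a filter, all 9 ERBB ligands with a cluster were tested in place of 4. Then 4 of 9 in place of 2 of 4 were called between MKN1 and AGS. Between SNU601 and MKN1, 5 of 9 in place of 1 of 4 were called. The share of all genes called without a filter is not given here. With 3 arrays per treatment, 1 from each line, receptor differences between treatments below 0.22 to 0.56 log2 units, the reach of the 95% intervals, could not be resolved. A difference past that reach need not be called, since the calls are adjusted over all genes tested.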
